A study of Mus musculus with 10 samples.

Results

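The control tumors of the series, called KP here, were 5 of its 10 bulk RNA sequencing libraries, taken by their group label and named KP 1 to KP 5. All came from male C57BL/6 mice of the KP model, in which lung adenocarcinomas are started by Cre recombinase. Cre was delivered by an adenovirus, Ad5SPC-Cre, whose surfactant protein C promoter restricts tumor initiation to cells that use this promoter. Tumors were collected 18 weeks and 6 days after initiation, macrodissected, and passed over magnetic beads that remove cells carrying CD45, the common leukocyte antigen. The genotype label of these tumors is heterozygous fl/wt for Slc2a1, which encodes the glucose transporter Glut1, whereas their column names read WT and the methods of the study allow either genotype. The age of the mice was not given, nor whether each tumor came from a separate mouse, so the spread described here is the spread between samples, which may be partly technical. The other 5 libraries, labelled KPG1, were not compared.

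Tumors of the KP model are thought to arise mainly from alveolar type 2 cells, the cells that make surfactant and renew the alveolus. As such tumors advance, cells can lose this identity and turn on genes of the embryonic foregut, stomach or gut. A bulk tumor also holds endothelial cells, fibroblasts and leukocytes. Tumors of the same model can therefore differ in differentiation, in the share of dividing cells and in their other cells.

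Between 32427029 and 49534284 reads were assigned to genes per library, and 21241 to 22583 genes had at least 1 count. KP 5 was the deepest library and had the fewest genes with a count, and its sample number in the labels was 6, against 11 to 16 for KP 1 to KP 4. The 20 most abundant genes held 6.76% to 10.1% of the counts. Of the Y-linked genes checked, 4 had a mean log2 value of at least 3, as the labelled sex requires, and the 37 mitochondrially encoded genes had no count in any library. All values below are log2 CPM (counts scaled to a common library size, on a log2 scale) from the authors' table unless another unit is named, and the description is restricted to the 10498 genes with a mean of at least 3.

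The 18 alveolar type 2 markers listed all had a mean of at least 3, as did 10 of 12 alveolar type 1 markers. Ptprc, which encodes CD45, was at 2.68, 2.74, 3.31, 2.79 and 2.38 log2 CPM in KP 1 to KP 5. Of 13 lymphocyte markers only Cd79b had a mean of at least 0, and no neutrophil marker of 9 had a mean of at least 3. The markers therefore matched the labelled tissue, with low but detected leukocyte transcripts after CD45 depletion.

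The most abundant transcripts of KP tumors were those of surfactant. Sftpb, encoding surfactant protein B, had the highest mean at 13.90 ± 0.71 log2 CPM (SD, n = 5), followed by Sftpc at 13.28 ± 0.88, Clu, encoding the secreted chaperone clusterin, at 13.26 ± 0.52, and Sftpa1 at 12.85 ± 1.01. Among the 20 genes with the highest means were also Sftpd, the phosphate transporter Slc34a2, the cholesterol carrier Npc2 and the chemokine Cxcl15, all known from alveolar type 2 cells. The others included the translation factors Eef1a1 and Eef2, the cytoskeletal genes Actb, Tmsb4x and Krt18, the immediate early gene Fos and the nuclear RNAs Malat1 and Neat1. Per length of the annotated exons, 14 of these 20 genes stayed among the 20 highest, and Sftpc came first at 37427 ± 21458 TPM (transcripts scaled by length and library size; SD, n = 5), with a range from 19746 to 63089 TPM. On that scale Sftpb was at 28261 ± 10730 TPM, and Lyz2, encoding lysozyme, entered the 20 highest with 4808 ± 2720 TPM. The most abundant genes were thus not the most even. Eef1a1 had an SD of 0.08 log2 units, whereas Slc34a2, at 9.63, 11.96, 11.95, 11.37 and 12.57 log2 CPM in KP 1 to KP 5, had an SD of 1.13.

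Nearly every gene differed between KP tumors by more than counting error. In a chi-square test of homogeneity on the counts, 10447 of the 10498 genes, or 99.5%, passed an adjusted threshold of 0.05 (Benjamini-Hochberg). This test compares these libraries and covers counting error only. The SD over the 5 libraries had a median of 0.32 log2 units and quartiles of 0.23 and 0.47, while counting alone gave a median SD of 0.036. An SD of at least 1 was reached by 418 genes, or 3.98%, and an SD of at least 2 by 33 genes. Without KP 5 the number with an SD of at least 1 was 261. The biological coefficient of variation common to all genes, estimated with edgeR, was 0.322 and was 0.271 without KP 5. At the other end, Pdcd2l, a gene linked to ribosome assembly, lay between 3.47 and 3.51 log2 CPM in all 5 libraries, with an SD of 0.02. Rhno1, which acts in the response to stalled replication, had the same SD at a mean of 4.98. Both were picked for their small SDs, which lie below their counting SDs of 0.069 and 0.041. Their evenness therefore cannot be told from counting error.

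**Figure D1:**
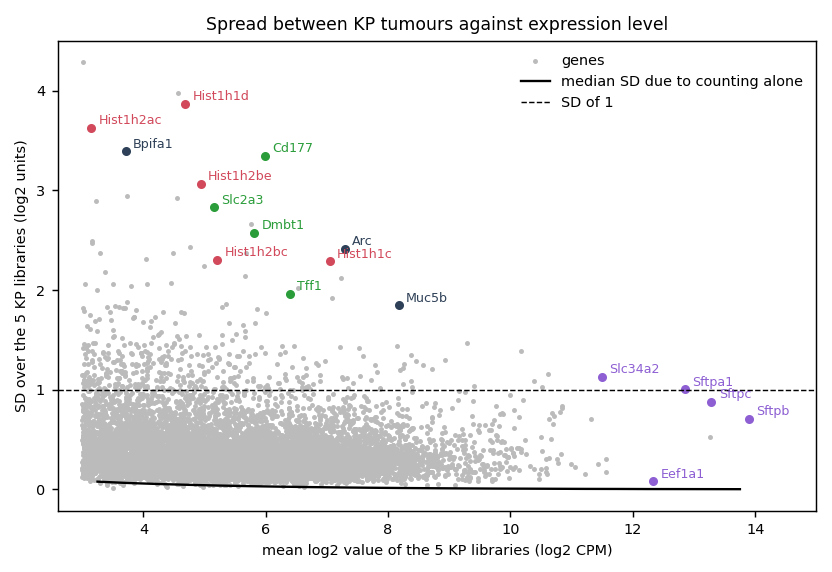
SD over the 5 KP libraries (y axis, log2 units) against mean expression (x axis, log2 CPM) for 10498 genes, with the median SD due to counting as a solid line and an SD of 1 as a dashed line. Histone genes such as Hist1h1d (SD 3.87) stand at the top of the plot, whereas Eef1a1 (SD 0.08) lies low but still above its own counting SD of 0.0032.

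Each library held genes at both ends of the spread, but not in equal numbers. Over all genes KP 5 was the highest library for 37.7%, KP 1 for 17.5%, KP 4 for 16.7%, KP 3 for 15% and KP 2 for 13.1%. The lowest library was KP 1 for 28.6% of genes, KP 5 for 24.5%, KP 3 for 22.1%, KP 4 for 13.1% and KP 2 for 11.7%. Among the 418 widely spread genes KP 5 was the lowest for 44.3% and KP 1 for 29.2%, while KP 1 was the highest for 30.9% and KP 5 for 30.6%. In 140 of these genes KP 5 lay at least 1 log2 unit below every other library, and in 72 at least 1 unit above. The same counts were 66 and 49 for KP 1, 13 and 30 for KP 4, 24 and 12 for KP 2, and 6 and 6 for KP 3. KP 3 was thus rarely at an extreme by a wide margin.

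**Figure D2:**
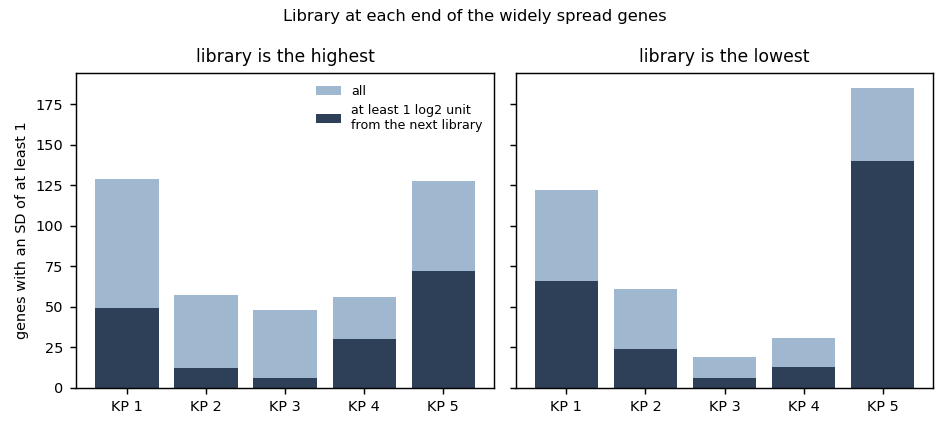
Number of genes with an SD of at least 1 (y axis) for which each KP library was the highest (left) or the lowest (right), with the darker part marking genes at least 1 log2 unit from the next library. KP 5 has the tallest bar on the right, with 185 genes, of which 140 stand apart.

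Compared pair by pair, KP 2 and KP 3 were closest, with 277 genes (2.64%) differing by at least 1 log2 unit, and KP 1 and KP 5 were farthest apart, with 2154 genes (20.5%). Pairs without KP 5 differed in 277 to 803 genes and pairs with KP 5 in 1343 to 2154. A principal component analysis of the 5 libraries gave the same picture. The first component held 52.4% of the variance, with KP 5 at -60.3 and KP 1 at the other end at 35.5. The second, with 21%, placed KP 2 at 26.5 and KP 3 at 21 against KP 1 at -23.5 and KP 4 at -18.9. KP 4 had the highest score on the third, 30.3, which held 17.3%. Genes that mark the negative end of the first component included Muc5b, Steap4, Il4i1, Chrd, Pla2g7 and Pros1. Its positive end held Hist1h1d, Hist1h2ac, Hist1h2be, Bpifa1, Ttr, Cd177, Slc2a3 and Arc.

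Genes were then grouped by the order of the libraries, to see which programs varied together. KP 1 was the highest and KP 5 the lowest for 102 of the widely spread genes (24.4%, against 8.36% of all genes), and the reverse held for 90 (21.5%, against 16%). The full order most often seen was KP 1, KP 3, KP 2, KP 4, KP 5 from high to low, in 28 genes. These included the replication genes Mcm2 and Mcm5, the immediate early genes Egr2, Egr3 and Ier2, the chemokine Cxcl10, the secretoglobin Scgb3a2 and the imprinted gene Nnat. Next came KP 5, KP 2, KP 3, KP 4, KP 1, in 24 genes. In that set were Sftpa1, Slc34a2 and Lamp3 of alveolar type 2 cells, Aqp5 of alveolar type 1 cells, and Psmb8, Psmb9 and Tap1, which prepare peptides for MHC class I.

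Across 36 lists of cell type markers and programs, each list was summarized in each library as the mean over its members of the log2 value minus the 5-library mean of the gene. The range over the libraries was at least 1 log2 unit for 23 lists and 15 without KP 5. The widest, with at least 5 members, were MHC class II (2.83), the gastric and gut lineage (2.67), erythroid genes (2.55), mitosis (2.28) and alveolar type 2 markers (1.89). The narrowest were ribosomal proteins (0.21), epithelial junction genes (0.26) and glycolysis (0.34).

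**Figure D3:**
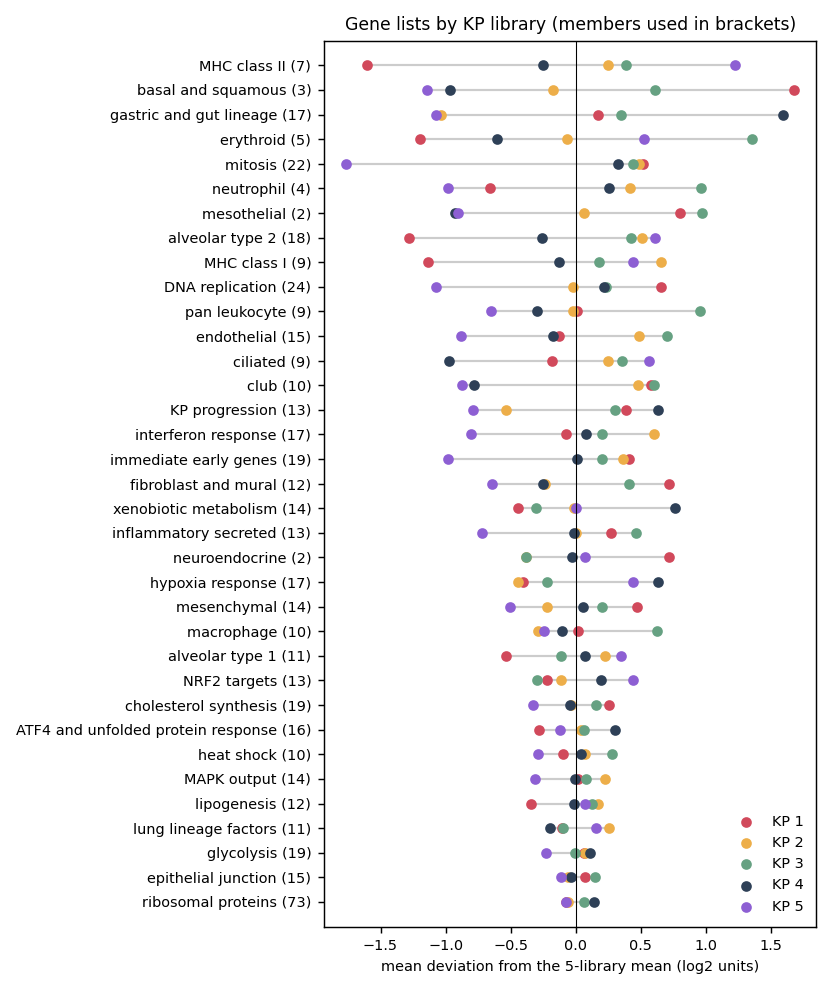
Mean deviation of each gene list from its 5-library mean (x axis, log2 units) in each KP library (colored points), for the lists with at least 2 members used, ordered by their range on the y axis. KP 5 stands alone on the left for mitosis at -1.76, and KP 4 on the right for the gastric and gut lineage at 1.59.

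KP 5 had low levels of genes of cell division. In bulk tissue, fewer cells of a type and less RNA per cell cannot be told apart, here and below. All 22 mitosis genes with a mean of at least 0 were lowest in KP 5, as were 29.1% of the 14005 genes at that level and 24.5% of those with a mean of at least 3. The list deviated by -1.76 log2 units in KP 5 and by 0.32 to 0.52 in the others. Mki67, the proliferation marker, was at 7.18, 7.16, 6.25, 6.56 and 4.45 log2 CPM in KP 1 to KP 5. The mitotic cyclin Ccnb1 was at 4.11, 3.73, 3.63 and 3.43 in KP 1 to KP 4 and at 0.53 in KP 5. Tpx2, a spindle assembly factor, was between 4.45 and 4.83 in KP 1 to KP 4 and at 1.80 in KP 5, so that KP 5 lay clearly outside the other libraries, which were close to each other. Of 24 genes of DNA replication, 22 were lowest in KP 5 and 17 highest in KP 1. Mcm6, a subunit of the replicative helicase, was at 7.15 in KP 1, 5.69 to 6.21 in KP 2 to KP 4 and 3.11 in KP 5. Markers of other cell types also stood low in KP 5, with 13 of 15 endothelial and 7 of 9 leukocyte markers lowest there. The summed level of the leukocyte markers was 311 to 495 CPM in KP 1 to KP 4 and 565 CPM in KP 5, most of it from Lcp1, which many carcinoma cells also express. Their part in the low division genes was not tested.

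Histone genes had the largest spread of any group described here. They were grouped after their values were seen. Most encode replication-dependent histones, whose main transcripts are made during DNA synthesis and end in a stem-loop rather than a poly(A) tail, so that a poly(A)-selected library holds only a part of them. Of 70 histone genes in the table, 19 had a mean of at least 0 and 7 a mean of at least 3. KP 5 was the lowest library for 17 of the 19 and KP 1 the highest for 16, against 29.1% and 21% of all genes with a mean of at least 0. Their summed level was 1378, 530, 369, 563 and 21.5 CPM in KP 1 to KP 5. Hist1h1d (ENSMUSG00000052565, chr13:23553262-23560686, mm10), a linker histone, was at 7.69, 5.87, 5.41 and 6.52 log2 CPM in KP 1 to KP 4. In KP 5 it was at -2.06, from 10 counts. Hist1h1c, another linker histone, was at 8.89, 7.94, 7.64, 7.70 and 3.06. Hist1h2ac, a core histone H2A gene, was at 6.39, 4.13, 3.18, 5.01 and -2.99, with 5 counts in KP 5. Thus KP 5 was far below the others, and KP 1 was the highest in each of these. The histone gene Hist2h2be on chromosome 3 was more even, at 3.33, 3.34, 3.20, 3.69 and 1.92. Over all genes of chromosome 13 the median in KP 5 was -0.05 and that in KP 1 was 0.39, on the scale described for chromosomes below.

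Promoter sequences of these genes from RefSeq (GRCm38.p6), 5′ to 3′ in the 150 bases before the start, are shown for a pair of linker histones and a pair of mitosis genes, because these genes shared the low level in KP 5. The first 2 lie at chr13:23738657-23738806 and chr13:23554882-23555031 on the plus strand, and the others at chr9:70421555-70421704 and chr10:69352913-69353062 on the minus strand. Capitals mark AAACACA, the letters of a motif of linker histone promoters, in the first 2 and CCAAT, or ATTGG on the other strand, in the last 2.
Hist1h1c: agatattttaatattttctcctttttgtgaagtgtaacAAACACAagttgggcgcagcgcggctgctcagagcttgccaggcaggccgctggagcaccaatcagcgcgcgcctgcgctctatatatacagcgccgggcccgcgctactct
Hist1h1d: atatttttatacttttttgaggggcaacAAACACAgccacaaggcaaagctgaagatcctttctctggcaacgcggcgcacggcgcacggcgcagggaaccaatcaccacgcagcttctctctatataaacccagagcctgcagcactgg
Ccnb2: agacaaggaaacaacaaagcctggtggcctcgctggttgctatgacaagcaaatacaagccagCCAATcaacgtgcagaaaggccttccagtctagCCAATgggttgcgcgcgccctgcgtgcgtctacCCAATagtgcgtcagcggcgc
Cdk1: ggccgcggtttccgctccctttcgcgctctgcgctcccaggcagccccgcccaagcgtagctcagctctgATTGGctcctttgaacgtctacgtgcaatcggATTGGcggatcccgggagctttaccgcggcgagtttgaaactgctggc

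Searched on both strands in the 250 bases before the start, CCAAT was present for 14 of the 15 mitosis genes with a mean of at least 3 and a RefSeq promoter, for 11 of 16 DNA replication genes and for all 5 such histone genes. Of 16 immediate early genes, 6 held it. Of all 27025 genes with a promoter in the table, 37.5% held it. This share covers genes at any level, whereas the listed genes had a mean of at least 3, so the sets are not alike. AAACACA was present for 2 of the 5 histone genes and 7.20% of all genes. TTTGAA, the letters of the cell cycle homology region, was present for 7 of the 15 mitosis genes and 18.3% of all genes. It was present for 3 of the 5 histone genes, but for only 2 of 16 DNA replication genes and 1 of 16 immediate early genes. Neither motif contains CCAAT. Ccnb2 itself was at 3.52, 2.97, 3.53, 2.90 and 1.18 log2 CPM, and Cdk1, the mitotic kinase, was at 4.46, 4.68, 4.91, 4.62 and 2.46. In both, KP 5 was the lowest by more than the range of the others.

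Immediate early genes, which respond within minutes to growth factors and stress, divided into an even and an uneven set. Of 19 such genes 13 were lowest in KP 5, against 24.5% of all genes. Egr3 was at 4.72, 4.14, 4.68, 4.11 and 0.37 log2 CPM in KP 1 to KP 5. Klf2, also a flow-responsive gene of endothelium, was at 7.88, 8.17, 7.70, 7.61 and 4.69. Egr2 and Ier2 were lower in KP 5 in the same way, at 4.69 and 6.08 against at least 6.86 and 8.03 elsewhere. Fos and Egr1 were not among them. Fos lay between 10.63 and 11.29 in all libraries, and Egr1 was highest in KP 5, at 11.04. Arc, better known as a neuronal activity gene and not in the list, was at 8.38, 8.38, 8.35 and 8.37 in KP 1 to KP 4 and at 2.97 in KP 5. The first 4 libraries were thus nearly equal, and KP 5 was 5.39 log2 units below the next. Dusp5, a MAP kinase phosphatase, was at 8.47 to 9.02 in KP 1 to KP 4 and at 5.59 in KP 5. The calcium channel gene Ryr3, which overlaps Aven on the other strand, was at 4.85 to 5.32 in the first 4 libraries and at -0.08 in KP 5. The nuclear RNAs Neat1 and Malat1 were also lowest in KP 5, at 9.44 against 10.86 to 11.22 and at 9.87 against 10.44 to 11.91.

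Other genes were high in KP 5. Muc5b (chr7:141839070-141873084), a gel-forming airway mucin, was at 6.66, 7.88, 7.11, 7.86 and 11.34 log2 CPM. With the other mucins, grouped after their values were seen, all 6 of 11 that had a mean of at least 0 were highest in KP 5, against 32.8% of all genes at that level. Muc4, a membrane mucin, was at 5.79, 7.04, 7.21, 7.89 and 9.65, and Muc20 at 4.08 to 5.96 in KP 1 to KP 4 and at 7.28 in KP 5. These last 2 genes overlap on opposite strands, so that reads can be shared if strand was not used in counting. Steap4, a metalloreductase, was at 1.96 to 3.74 in KP 1 to KP 4 and at 6.66 in KP 5. Il4i1, an amino acid oxidase of immune cells that overlaps Nup62, was at 3.55 to 5.74 and at 8.16. Pla2g7, which hydrolyzes platelet-activating factor, was at 2.11 to 3.85 and at 6.74. Pros1, encoding protein S, was at 4.75 to 6.50 and at 8.57. The long noncoding RNAs Meg3, Rian and Mirg of the imprinted region of chromosome 12 were likewise highest in KP 5, with Meg3 at 12.24 against 9.42 to 10.41. Bpifa1, a secreted protein of the upper airway, went the other way, at 5.50, 6.10, 5.63, 3.39 and -2.06.

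**Figure D4:**
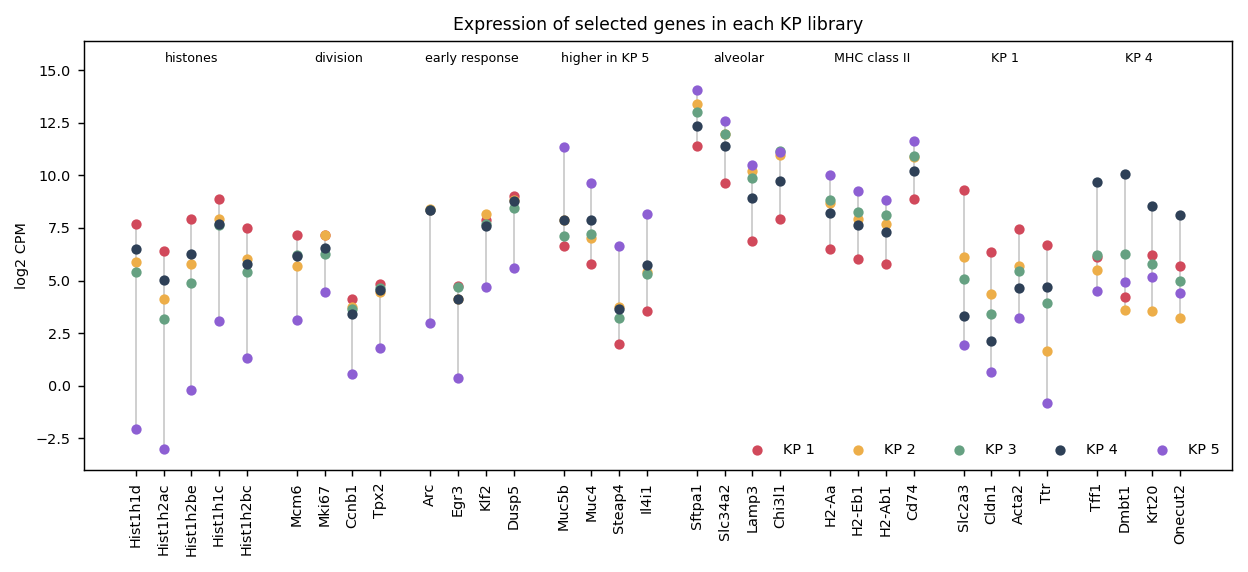
Expression of selected genes (log2 CPM, y axis) in each KP library (colored points, 1 per library). KP 5 is the lowest point for the histone, division and early response genes shown, KP 1 is the lowest for the MHC class II genes, and KP 4 is the highest for Tff1, Dmbt1, Krt20 and Onecut2.

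KP 1 had the lowest levels of alveolar genes. Of 18 alveolar type 2 markers 16 were lowest in KP 1, against 28.6% of all genes, and the list deviated by -1.28 log2 units there, by -0.26 in KP 4 and by 0.42 to 0.61 in the other 3. With total counts in place of the authors' scaling KP 1 was still the lowest but KP 2 rather than KP 5 the highest. Sftpa1 was at 11.42, 13.38, 13.03, 12.36 and 14.05 log2 CPM in KP 1 to KP 5. Lamp3, a membrane protein of lamellar bodies, was at 6.87, 10.21, 9.89, 8.94 and 10.51, and Chi3l1, a secreted chitinase-like protein, at 7.90, 10.95, 11.16, 9.75 and 11.09. In these genes KP 1 was the lowest library, with KP 4 next above it. Sftpc differed, since KP 4 at 12.59 and KP 5 at 13.03 were nearer to KP 1 at 12.38 than to KP 2 at 14.16 and KP 3 at 14.26. Dlk1, an imprinted Notch ligand of the same list, was at 7.0, 9.64, 8.20, 7.05 and 9.43, low in KP 4 as well as KP 1. Of 11 alveolar type 1 markers, 6 were lowest in KP 1 and 4 in KP 3, against 24.7% and 19.9% of all genes with a mean of at least 0. By the median over members KP 3 rather than KP 1 was the lowest. Aqp5, a water channel, was at 6.71, 9.0, 8.97, 8.11 and 9.17, whereas Hopx was higher in KP 4 and KP 5, at 7.31 and 7.52, than in the other 3, at 5.41 to 5.96. The lung lineage factors spread less, with a range of 0.45 for the list. Nkx2-1, the master regulator of the lung lineage, was between 7.35 and 8.24, and Foxp2, at 2.48 in KP 1 and 4.47 to 5.34 elsewhere, was the member with the largest SD.

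Antigen presentation genes, like the alveolar genes, were mostly lowest in KP 1. All 7 MHC class II genes were lowest in KP 1 and highest in KP 5, against 28.6% and 37.7% of all genes. The list deviated by -1.60, 0.25, 0.38, -0.25 and 1.22 log2 units in KP 1 to KP 5. MHC class II molecules present extracellular peptides to helper T cells and are expressed by alveolar type 2 cells as well as by leukocytes. H2-Aa was at 6.49, 8.71, 8.85, 8.21 and 10.03 log2 CPM. Cd74, the invariant chain, was at 8.89, 10.89, 10.93, 10.22 and 11.62. Of 9 MHC class I pathway genes 8 were lowest in KP 1, against 24.7% of all genes with a mean of at least 0, and 1 in KP 5. By mean deviation this list was highest in KP 2, at 0.66 against 0.44 in KP 5. By the median over members KP 5 was the highest. Of its members 4 were highest in KP 2 and 5 in KP 5, and its summed level was 2331 CPM in KP 2 and 1568 CPM in KP 5. Psmb8, a subunit of the immunoproteasome, was at 3.34, 5.23, 5.02, 4.85 and 6.37, and the peptide transporter gene Tap1 was at 3.40, 5.36, 4.86, 4.38 and 6.11. Tap1 and Psmb9 overlap on opposite strands. Most of these genes lie on chromosome 17, whose median over all genes was -0.28 in KP 1 and 0.10 in KP 5. As a list, leukocyte markers did not follow the class II order, deviating by 0.01, -0.02, 0.96, -0.29 and -0.65 in KP 1 to KP 5. Ptprc was higher in KP 1 than in KP 5. The summed level of the leukocyte markers, however, was 407 CPM in KP 1 and 565 CPM in KP 5. Cd79b, the only lymphocyte marker used, was lowest in KP 1 and highest in KP 5, deviating by -0.77 and 1.00. The part of leukocytes in the class II levels was not tested. Lcn2, encoding lipocalin 2, was also lowest in KP 1, at 6.84 against 8.70 to 10.16.

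The promoters of a pair of class II genes are shown for this shared order, in the same form, with CCAAT or ATTGG in capitals. They lie at chr17:34287824-34287973 on the minus strand and chr17:34305717-34305866 on the plus strand. Of the 7 class II genes 4 had a RefSeq promoter, and all 4 held CCAAT in the 250 bases before the start.
H2-Aa: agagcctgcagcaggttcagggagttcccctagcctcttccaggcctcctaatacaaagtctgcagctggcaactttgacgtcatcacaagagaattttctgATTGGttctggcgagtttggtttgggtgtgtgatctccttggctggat
H2-Eb1: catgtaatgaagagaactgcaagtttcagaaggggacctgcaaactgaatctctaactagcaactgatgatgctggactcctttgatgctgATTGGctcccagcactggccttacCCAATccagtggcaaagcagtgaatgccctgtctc

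KP 1 in turn had the highest levels of Slc2a3, which encodes the glucose transporter Glut3 (ENSMUSG00000003153, chr6:122727809-122801640). Slc2a3 was at 9.33, 6.10, 5.09, 3.33 and 1.93 log2 CPM, an SD of 2.83, and it overlaps the gene model Gm4482. Slc2a1 was at 6.29, 6.99, 6.93, 6.77 and 6.15, an SD of 0.38, so its level was lowest in the 2 libraries at the ends of the Slc2a3 range. The tight junction gene Cldn1 had the same order as Slc2a3, at 6.35, 4.38, 3.42, 2.10 and 0.64, and so did Acta2, smooth muscle actin, at 7.43, 5.70, 5.46, 4.65 and 3.20, and the imprinted gene Peg3, at 7.02, 5.75, 4.41, 3.68 and 2.49. This order was shared by 18 of the widely spread genes (4.31%, against 1.58% of all genes). Nnat, also imprinted, was at 5.41, 4.42, 4.43, 3.18 and 0.12. Peg10, another imprinted gene, was at 6.53 in KP 1, 5.05 in KP 3 and 2.77 to 3.09 elsewhere. Of 20 imprinted genes, grouped after their values were seen, 16 had a mean of at least 0. KP 1 was the highest for 8 and the lowest for 6 of these, against 21% and 24.7% of all genes at that level. KP 5 was the highest for 6 and the lowest for 5, against 32.8% and 29.1%. Ttr, the thyroid hormone carrier transthyretin, was at 6.67, 1.66, 3.93, 4.70 and -0.84. Fn1, encoding fibronectin, was at 11.37 in KP 1 and 9.24 to 10.55 elsewhere. The chemokine Cxcl10 was at 5.65 in KP 1 and 1.77 to 3.23 elsewhere, and the monooxygenase Fmo1 at 7.47 and 4.23 to 5.27. Of 12 fibroblast and mural markers with a mean of at least 0, 8 were highest in KP 1, against 21% of all genes at that level. Col1a1 was at 6.25, 4.81, 6.25, 5.05 and 4.69, as high in KP 3 as in KP 1, and the part of these cells in the other genes was not tested. The basal and squamous list was highest in KP 1 too, at 1.68, but it rests on 3 of 11 markers.

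KP 4 was marked by genes of the stomach and gut. Of 22 such genes 17 had a mean of at least 0, and 11 of these were highest in KP 4, against 16.6% of all genes at that level. The list deviated by 1.59 log2 units in KP 4, by 0.17 and 0.35 in KP 1 and KP 3, and by -1.04 and -1.07 in KP 2 and KP 5. Tff1, a trefoil peptide of gastric mucus, was at 6.11, 5.51, 6.22, 9.68 and 4.48 log2 CPM. The intestinal galectin Lgals4 was at 4.55 to 5.00 in the other 4 and at 7.64 in KP 4. Dmbt1, a mucosal scavenger receptor, was at 4.20, 3.59, 6.28, 10.05 and 4.94. Krt20, the gut keratin, was at 6.22, 3.56, 5.79, 8.54 and 5.18, and Onecut2, a foregut and liver transcription factor, was at 5.69, 3.22, 4.96, 8.12 and 4.39, both members of a list of genes of KP progression. That list had 13 members with a mean of at least 0. KP 4, KP 1 and KP 3 were each the highest for 4, against 16.6%, 21% and 16% of all genes at that level. KP 5 was the lowest for 7 of the 13 and KP 4 for 2, against 29.1% and 14.1%. The lowest library was KP 5 for Tff1 and KP 2 for Dmbt1, Krt20 and Onecut2. Dmbt1 overlaps Fgfr2 on the other strand. Anxa10, an annexin of gastric epithelium, was shared by KP 3 and KP 4, at 5.61 and 6.30 against 1.58 to 2.84, and so in part was Gabrp, at 5.42 and 5.23 with 4.16 in KP 5 and under 1 in KP 1 and KP 2. Cdh17, an intestinal cadherin, was lowest in KP 2, at 1.61 against 3.74 to 5.67. Enzymes of xenobiotic metabolism deviated by 0.76 in KP 4, with Aldh3a1 at 5.29 against 1.49 to 3.03 and Cyp2s1 at 8.86 against 5.50 to 7.26. The hypoxia list was high in KP 4 and KP 5, at 0.63 and 0.44 against -0.22 to -0.44, with Egln3, an oxygen-sensing hydroxylase, at 6.28 and 5.64 against 4.03 to 4.71. Ciliated cell markers were lowest in KP 4 for 7 of the 9 with a mean of at least 0, against 14.1% of all genes at that level.

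By mean deviation, KP 3 had the highest levels of markers of blood, vessels and leukocytes, without standing apart in many single genes. By summed level the leukocyte markers were highest in KP 5, at 565 CPM against 495 CPM in KP 3. The lymphocyte marker Cd79b was also highest in KP 5. All 5 erythroid genes that had a mean of at least 0 were highest in KP 3, against 15% of all genes. Hbb-bs, a beta-globin, was at 5.66, 6.27, 7.81, 6.34 and 6.43 log2 CPM. Hbb-bt, a near-identical copy, was at 2.20, 5.37, 7.11, 3.20 and 7.11, and its values are uncertain because reads of the 2 genes can be hard to separate. Of 15 endothelial markers 12 were highest in KP 3 and 13 lowest in KP 5. Plvap, of fenestrated vessels, was at 5.93, 6.68, 6.97, 5.98 and 4.91, and Vwf, encoding von Willebrand factor, was at 7.94, 8.30, 8.39, 7.35 and 6.16. Of 9 leukocyte markers 8 were highest in KP 3, and Itgb2, a leukocyte integrin, was at 3.25, 2.90, 4.39, 2.97 and 1.86. The macrophage list deviated by 0.63 in KP 3 and by -0.29 to 0.02 elsewhere. KP 2 stood at least 1 log2 unit above the others in 12 of the widely spread genes. One of these was Cd177, best known as a neutrophil surface protein, at 5.95, 9.70, 8.51, 4.55 and 1.23. The neutrophil list, which rests on 4 of 9 markers, deviated by 0.96 in KP 3 and 0.42 in KP 2, the 2 libraries in which Cd177 was highest, and by -0.98 to 0.26 elsewhere. Its summed level was 17.8 CPM in KP 2, 19.7 CPM in KP 3 and 6.07 to 13.1 CPM in the others, and the defining markers Ly6g and Mpo had means under 0. The part of these cells in the level of Cd177 was not tested.

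Several metabolic and stress programs had a narrow range. Glycolysis genes spanned 0.34 log2 units as a list, lipogenesis 0.52, heat shock genes 0.57, ATF4 and unfolded protein response genes 0.58, and cholesterol synthesis 0.59. NRF2 targets spanned 0.73, with 9 of 13 highest in KP 5, against 37.7% of all genes. In the glycolysis list only Slc2a3 had an SD of at least 1. Gapdh came next with 5.73, 7.07, 5.11, 4.45 and 5.86, but it has many near-identical pseudogenes, so its counts are uncertain. Of 73 ribosomal protein genes 30 were highest in KP 4, against 16.7% of all genes, and 26 were lowest in KP 5, against 24.5%. Only Rpl23a among them had an SD of at least 1.

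Several of the largest spreads belonged to processed pseudogenes. They made up 8 of the 30 genes with the largest SD, and 9.85% of the 274 pseudogenes had an SD of at least 1, against 3.79% of protein-coding genes. Gm12033 was at -4.06, 6.46, 2.30, 6.07 and 4.35 log2 CPM, the largest SD of all at 4.29. Gm4963 was at -2.54 in KP 2 and 5.96 to 6.61 elsewhere, and Rpl31-ps13 at -0.66 in KP 1 and 5.42 to 6.16 elsewhere. Such genes share most of their sequence with a parent gene, and their values are uncertain.

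Some differences extended over whole chromosomes. For each chromosome the median over its genes of the log2 value minus the 5-library median of the gene was taken, less the same median over all genes of the library. Of 100 such values, 10 had a size of at least 0.2, and they were found in KP 5 (7) and KP 1 (3). In KP 5 chromosome 16 was at 0.58 log2 units, from 353 genes, of which KP 5 was the highest for 75.4%, against 37.7% of all genes. Chromosome 5 was at 0.38, chromosome 18 at 0.27, chromosome 12 at 0.25 and chromosome 14 at 0.24 in the same library, while chromosome 8 was at -0.36 and chromosome 19 at -0.30. In KP 1 chromosome 13 was at 0.39, and KP 1 was the highest for 69.6% of its 372 genes, against 17.5% of all genes. Chromosomes 17 and 15 were at -0.28 and -0.25 in KP 1. In windows of 25 Mb, examined after these values were seen, the 4 windows of chromosome 16 were between 0.53 and 0.66 in KP 5, and the 5 windows of chromosome 13 between 0.38 and 0.49 in KP 1. The other shifted chromosomes were less even in KP 5. Windows of chromosome 19 were at -0.35, -0.30 and -0.03, and those of chromosome 8 between -0.54 and -0.16. They were between 0.23 and 0.64 on chromosome 5 and between 0.13 and 0.51 on chromosome 14. On chromosomes 18 and 12 they were between 0.17 and 0.48 and between 0.18 and 0.42. KP 4 differed along chromosome 14, with its first 3 windows at 0.31, 0.19 and 0.04 and its last 2 at -0.41 and -0.48. It also varied along chromosome 15, with windows at 0.53, 0.38, 0.29, 0 and 0.19 in order.

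**Figure D5:**
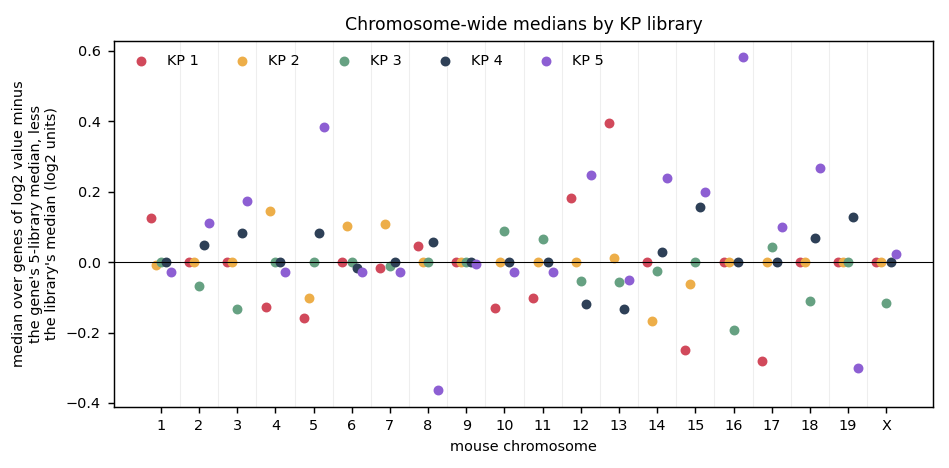
Median over the genes of each chromosome (x axis) of the log2 value minus the 5-library median of the gene, less the median over all genes of the library (y axis, log2 units), for each KP library (colored points). KP 5 reaches 0.58 on chromosome 16 and -0.36 on chromosome 8, and KP 1 reaches 0.39 on chromosome 13.

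These shifts were small beside the spread of the named genes, some of which lay on shifted chromosomes. Of the 72 genes in which KP 5 stood at least 1 log2 unit above the others, 8 lay on chromosome 16 (11.1%, against 3.36% of genes), among them Muc4, Muc20 and Pros1. Of the 140 in which it stood as far below, 18 lay on chromosome 8 (12.9%, against 5.64%), among them Klf2. Chromosomes with smaller medians in KP 5 also held many. Chromosomes 17 and 15, at 0.10 and 0.199, held 9 (12.5%, against 4.93%) and 8 (11.1%, against 4.08%) of the 72. Chromosome 18, at 0.27, held 1 (1.39%, against 2.58%). Chromosome 13, at -0.05, held 12 of the 140 (8.57%, against 3.54%). The part of the chromosome-wide shifts in these genes was not tested.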

How the data were processed

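RNA was measured in macrodissected, CD45-depleted KP tumors by stranded poly(A) RNA sequencing from 500 ng of total RNA. Per the methods and the submitters' processing notes, reads were demultiplexed (bcl2fastq 2.17), trimmed (Cutadapt; the sources differ on its version), aligned with HISAT2 to mm10 and counted per gene by the authors with featureCounts 1.4.4. The annotation release and the strand setting of the counting are not given in the sources used here. The deposited counts are whole numbers per gene. The log2 values deposited by the authors are log2 CPM with edgeR's TMM scaling and a voom offset of 0.5, computed over all 10 libraries of the series. Such shared scaling means that every KP value depends to a small extent on the other group.

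The spread was taken from the log2 values of the 5 KP libraries over genes with a mean of at least 3, and counting error from the counts. A chi-square test of homogeneity used TMM effective library sizes and was tested on simulated data. The common biological coefficient of variation came from edgeR 4.0.16 in R 4.3.3, and other steps ran in Python 3.11.15 with numpy 2.4.6, pandas 2.3.3 and matplotlib 3.10.9. List members entered a summary with a mean of at least 0. TPM used exon lengths of GENCODE M21, which held 10451 of the 10498 genes. Counts were from 32427029 to 49534284 per library. Reads carry no molecular identifiers, so counting errors cover counting only. No groups were compared. Alternatives were other scalings (DESeq2 1.42.0 size factors, TMM over the KP libraries alone, total counts), other minimum levels, per-length and other rankings, and leaving out each library.

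Named genes were the 20 with the highest mean, the 30 with the largest and 10 with the smallest SD, up to 4 members per list with the largest SD, Slc2a1, Slc2a3 and Ptprc, and 8 at each end of the first component. Ccnb2, Cdk1, Egr1, Hist2h2be, Ly6g, Lyz2, Meg3, Mpo and Rian fall outside this rule, and they and the histone, mucin and imprinted groups were chosen after their values were seen. The members and lists were chosen with earlier results of these data known. The engineered alleles that start the tumors are not reported here.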

Additional observations from a re-analysis of the deposited data

Results flagged for a closer look

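For 113 genes, 39 lists, 10 chromosome medians and 5 library measures, the gap between the highest or lowest library and its nearest neighbor was divided by the range of the 5 libraries, and ratios above Dixon's 95% value of 0.71 were noted. Chance gives about 1 in 20 such groups. Of 167 items 27 were past it, and over all 10498 genes 681 (6.49%) were. Most of the genes had been named for their spread, and the chromosomes were those with a median of at least 0.2 in size in 1 library, so that these shares cannot be set against the share that chance gives.

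KP 5 was the low library for 15 of the 21 genes. The ratios were 0.766 for Hist1h1d and 0.785 for Hist1h1c. Among division genes they were 0.809 for Ccnb1, 0.732 for Ccnb2, 0.815 for Cdk1 and 0.874 for Tpx2, and 0.914 for the mitosis list. Early response genes gave 0.861 for Egr3, 0.725 for Egr2, 0.838 for Klf2 and 0.779 for Ier2, with 0.714 for the immediate early list. Arc had the highest ratio, 0.996, and Ryr3 0.913, Dusp5 0.839, Neat1 0.799 and Actb 0.766 followed. Muc5b, at 0.739, was the gene for which KP 5 was the high library.

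Elsewhere Sftpd (0.741) and Rpl31-ps13 (0.892) were low in KP 1, Gm4963 (0.929) in KP 2 and Gm15710 (0.786) in KP 3, and Lgals4 (0.855) was high in KP 4. Of the chromosomes, chromosome 8 was low (0.864) and chromosome 16 high (0.751) in KP 5, and chromosome 13 was high (0.727) and chromosome 17 low (0.737) in KP 1. What lies behind these gaps was not tested.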

How the results depend on the processing

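No paired analysis was possible because 1 group was described and no groups were compared. The number of genes with an SD of at least 1 was 826 with a minimum mean of 1, 143 with a minimum of 5 and 6083 with none, and it was 261 to 516 when 1 library was left out, lowest without KP 5. The share of these genes lowest in KP 5 was 51.6%, 36.4% and 56.5% under the same minimums, 58.4% with total counts and 42.6% to 52.5% with 1 library left out (KP 5 itself always kept). Total counts moved the median gene by 0.14 log2 units in KP 1 and by -0.18 in KP 5. The first component held 41.2% of the variance without a minimum and 43.7% to 63.3% with 1 library left out. With 1 library left out, 15 to 23 lists had a range of at least 1, 14 to 25 of the 30 genes with the largest SD were shared and the coefficient of variation was 0.271 to 0.342, each lowest without KP 5. The homogeneity test called 17523 of 25252 tested genes (69.4%) without a minimum, against 99.5% of the 10498 genes used above. With 1 library left out it called 10307 to 10366 genes, or 97.7% to 99% of those tested. Chromosome 16 in KP 5 was at 0.39 with total counts and at 0.46 to 0.56 with 1 of the others left out. Over 4 other scalings or summaries, the highest library of a list was the same in 133 of 144 comparisons and the lowest in 128. Restricting to protein-coding genes, an alternative added after seeing the data, gave 382 genes with an SD of at least 1. None of the chromosome medians compared changed sign. The counts, shares, SDs and ranges cannot be negative, so no change of sign could be seen in them. The causes of the changes between settings were not tested. Genes near the minimum level, with few counts, limit the spread that can be read.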
